A study of Mus musculus with 12 samples.

Results

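The miR-26 and miR-101 assays of a hippocampal TaqMan OpenArray were examined in 12 samples. An assay was included when it was named miR-26 or miR-101, with any letter, and did not carry the sign for a passenger strand (#). This rule gave 4 of 619 miRNA assays, namely hsa-miR-26a, hsa-miR-26b, hsa-miR-101 (assay hsa-miR-101_002253) and mmu-miR-101b, called miR-26a, miR-26b, miR-101 and miR-101b here. All 4 had a Ct below 28 in every sample and were therefore among the 335 miRNAs analyzed. The miRNAs were selected on their group averages relative to wt control samples, which were known to depend on wt control replicate 1, and as abundant brain miRNAs. Levels, and comparisons that use wt control samples, are therefore given as a description without a test.

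The samples fell into 4 groups of 3, and RNA of 2 C57BL/6 mice, 1 hippocampus each, was combined per sample. Vehicle-injected controls, taken 8 h after the injection, were wild type (wt control) or lacked the P2X7 receptor (P2rx7-/- control). Mice of both genotypes were also taken 8 h after 0.3 µg kainic acid (KA) was injected into the amygdala to induce status epilepticus (wt post-SE and P2rx7-/- post-SE). Every group received 6 mg/kg lorazepam, an anticonvulsant, and all hippocampi were from the injected side. The sample labels give an age of 8 weeks, and the methods describe male mice with an age range that starts there. The P2rx7-/- mice lack an exon of P2rx7 in all cells, so the deletion is not limited to one cell type. In RNA from whole hippocampus, fewer cells of a type and less miRNA per cell cannot be told apart.

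MiRNAs guide Argonaute proteins to target mRNAs mainly through the seed, bases 2 to 8 of the mature strand. The miR-26 family is processed from introns of the Ctdsp genes, which encode small phosphatases that restrain neuronal gene transcription, and it is abundant in neurons and glia. MiR-101 is known for targeting Ezh2, the methyltransferase of the Polycomb repressive complex, which miR-26a also targets. In the developing hippocampus, miR-101 is known to restrain network excitability.

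The mature sequences are shown because the members of each family differ by few bases, while their values in 1 sample differed widely. They were taken from RefSeq (build GRCm38.p6), in which each of the 4 assays was assigned an entry from its name. Beyond the missing # sign the names do not state the strand, and the name of miR-101 carries no letter. The assays' own target sequences were not given in the sources used here. The miR-26a, miR-26b and miR-101 assays carry human names and were matched to the mouse entry. Capitals mark bases 2 to 8.

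miR-26a: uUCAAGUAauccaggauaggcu

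miR-26b: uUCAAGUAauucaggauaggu

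miR-101 (miR-101a-3p entry): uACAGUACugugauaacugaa

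miR-101b: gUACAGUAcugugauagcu

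MiR-26a and miR-26b share their seed and were identical at 19 of the 21 bases that could be compared. They differed by C11U and C21U, with the miR-26a base first and positions counted from 1 at its 5′ end. MiR-101 and miR-101b were identical at 17 of 18 bases and differed by A16G, counted along miR-101. The miR-101b entry starts 1 base earlier, so that the seed letters of miR-101 lie at bases 3 to 9 of that entry. The families share no seed.

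The 4 miRNAs come from 5 hairpins, shown with the measured strand in capitals to place it on its arm.

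Mir26a-1: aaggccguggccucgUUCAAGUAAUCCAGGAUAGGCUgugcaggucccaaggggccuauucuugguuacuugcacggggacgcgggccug

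Mir26a-2: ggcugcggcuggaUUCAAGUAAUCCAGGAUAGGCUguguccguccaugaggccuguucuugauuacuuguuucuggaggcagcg

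Mir26b: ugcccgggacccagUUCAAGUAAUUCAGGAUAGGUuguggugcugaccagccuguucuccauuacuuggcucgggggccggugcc

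Mir101a: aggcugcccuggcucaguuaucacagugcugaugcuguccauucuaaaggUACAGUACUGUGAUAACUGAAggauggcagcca

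Mir101b: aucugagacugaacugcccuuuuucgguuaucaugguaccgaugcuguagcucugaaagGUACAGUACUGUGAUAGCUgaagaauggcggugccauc

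The miR-26 strands lie on the 5′ arm and the miR-101 strands on the 3′ arm. MiR-26a is encoded at chr9:119031811-119031832 (+ strand, within the span of Ctdspl) and at chr10:126995543-126995564 (+ strand, within Ctdsp2), and the assay cannot separate these loci. MiR-26b lies at chr1:74394324-74394344 (+ strand, within Ctdsp1). MiR-101a lies at chr4:101346957-101346977 on the - strand, within the span of E130102H24Rik, and miR-101b at chr19:29135338-29135356 on the + strand, within that of Rcl1.

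Values are given as the threshold cycle (Ct), which falls as the amount of miRNA rises, by about 1 cycle per doubling. They are also given as a normalized level, obtained by subtracting the Ct of the assay from the average Ct of all 335 miRNAs in that sample. This level is on a log2 scale, and 0 is the average miRNA of the sample. Ct values of different assays depend on each assay's efficiency, so levels are compared between samples and not as amounts between miRNAs.

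Before the results, 1 sample has to be set apart. In wt control replicate 1, 68 of 335 miRNAs lay more than 2 cycles away from their median elsewhere, against 4 to 32 miRNAs in each of the other 11 samples. In this sample 13 miRNAs were over 5 cycles later and 9 over 5 cycles earlier. MiR-26a was the most delayed of all 335, with a Ct of 26.9 against a median of 11.5 in the other samples, a delay of 15.4 cycles. MiR-101 ranked at position 9, with 24.2 against 16.3 cycles, a delay of 7.83 cycles. The family members did not share this delay, since the Ct of miR-26b was 15.2 against 14.8 and that of miR-101b was 15.3 against 15.8. The other miRNAs among the 5 most delayed were miR-150 (13.6 cycles), miR-99a (11.97 cycles), miR-376b (10.4 cycles) and miR-376a (9.82 cycles).

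**Figure D1:**
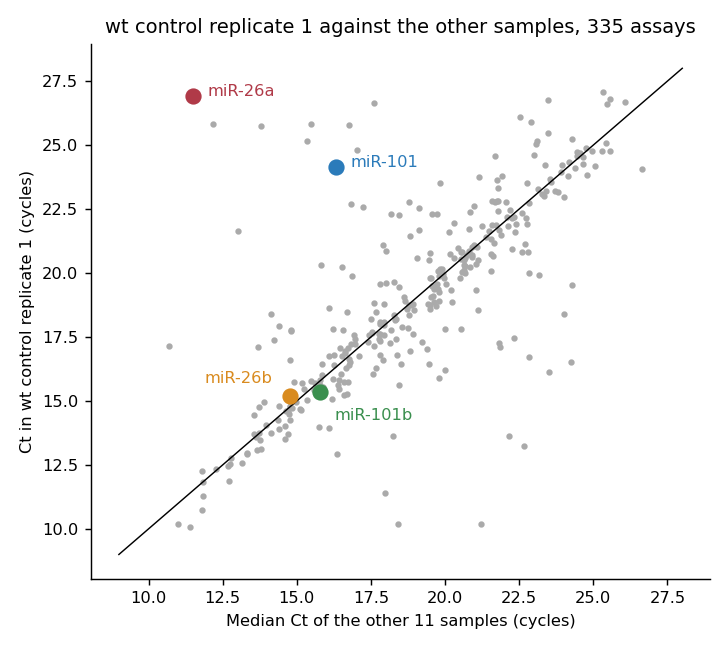
Each point is 1 of 335 miRNA assays, with its median Ct in the other 11 samples on the x axis and its Ct in wt control replicate 1 on the y axis (cycles); the line marks equal Ct. miR-26a (26.9 against 11.5 cycles) and miR-101 (24.2 against 16.3 cycles) lie far above the line, and miR-26b and miR-101b lie close to it.

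Of the markers used to check the tissue, the neuron-enriched miR-128a and miR-137 were detected in all 12 samples. MiR-124a had a Ct in 11 samples, miR-138 in 10 and miR-9 in 4, where miR-9 had a median of 10.5 cycles. Of the markers of other cell types, 4 of 6 assays for oligodendrocytes (miR-219 and miR-338), 4 of 5 for blood (miR-223, miR-486, miR-451 and miR-144) and 1 of 4 for vessels (miR-145, out of miR-126, miR-143 and miR-145) were among the 335. MiR-223 was read by more than 1 of the 4 blood assays analyzed. Between P2rx7-/- and wt post-SE samples, 1 of 4 oligodendrocyte assays and 3 of 4 blood assays had an average fold change above 1.5. This held for 0 of 2 neuron-enriched assays, 0 vascular assays and 17% of all miRNAs. No marker assay had an average fold change below 0.6. The median log2 difference was -0.11 over the oligodendrocyte and 0.64 over the blood assays, against -0.01 over all miRNAs. It was -0.007 over the neuron-enriched assays and -0.66 for the vascular assay. Between P2rx7-/- post-SE and P2rx7-/- control samples, 2 of 4 oligodendrocyte assays were above 1.5 (17.9% of all miRNAs), with a median log2 difference of 0.56. The mean level of the oligodendrocyte assays was 1.40 in P2rx7-/- post-SE replicate 1, and 0.13 and 0.12 in replicates 2 and 3. Only replicate 1 lay above the range of the P2rx7-/- control samples (-0.19 to 0.46). No neuron-enriched, blood or vascular assay passed either threshold in this comparison. The mean level of the blood assays was 1.95 to 2.60 in wt post-SE and 2.29 to 3.40 in P2rx7-/- post-SE samples. It was 2.82 to 3.61 in wt control and 2.67 to 3.48 in P2rx7-/- control samples. The part of blood cells and oligodendrocytes in the values of miR-26 and miR-101 was not tested. The lowest Ct in the table was 10.004 cycles. MiR-26a lay near this lower end, between 10.9 and 13.4 cycles in the 11 samples other than wt control replicate 1. Whether this bears on its values was not tested.

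Among these 11 samples miR-26a was one of the earliest miRNAs, with a median Ct rank of 5 of 335 (2 to 30). MiR-26b had a median rank of 48 (35 to 89), miR-101b of 77 (52 to 91) and miR-101 of 82 (57 to 132). In wt control replicate 1, the ranks were 334 for miR-26a, 300 for miR-101, 53 for miR-26b and 57 for miR-101b.

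The normalized level of miR-26a in wt control samples was -7.86, 7.27 and 7.39 in replicates 1, 2 and 3. In P2rx7-/- control samples it was 7.67, 7.33 and 7.66, and in wt post-SE samples it was 7.54, 7.76 and 7.61. In P2rx7-/- post-SE samples it was 5.14, 7.57 and 7.32. Thus 10 of the 12 samples lay between 7.27 and 7.76, and the low ones were wt control replicate 1 and P2rx7-/- post-SE replicate 1. In the latter sample, the distance of miR-26a from the median of the other samples (-2.40) was the 12th largest in size among the 335 miRNAs. For miR-26b the level of the same sample (3.64) lay 0.47 below the median of the other samples, the 130th largest distance.

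For miR-26b, which differs from miR-26a by 2 bases over their shared length, the level in wt control samples was 3.84, 3.98 and 4.19, so wt control replicate 1 lay with its group. It was 2.46, 4.27 and 4.39 in P2rx7-/- control, 3.68, 4.11 and 4.53 in wt post-SE and 3.64, 4.13 and 3.93 in P2rx7-/- post-SE samples. The lowest value, 1.65 below the median of the other samples, was that of P2rx7-/- control replicate 1, and all 4 groups overlapped.

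For miR-101, the level was -5.10, 2.82 and 2.43 in wt control and 1.03, 2.45 and 2.81 in P2rx7-/- control samples. After status epilepticus it was 3.84, 2.20 and 2.89 in wt and 2.83, 2.39 and 2.76 in P2rx7-/- samples. Outside wt control replicate 1, the lowest sample was P2rx7-/- control replicate 1, which was also lowest for miR-26b, and the highest was wt post-SE replicate 1.

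MiR-101b had the narrowest range of the 4 miRNAs. Its level was 3.70, 2.86 and 2.88 in wt control, 2.68, 2.78 and 3.52 in P2rx7-/- control, 2.90, 2.35 and 3.42 in wt post-SE and 2.73, 2.49 and 3.88 in P2rx7-/- post-SE samples. No group stood apart, and wt control replicate 1 was the second highest sample.

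**Figure D2:**
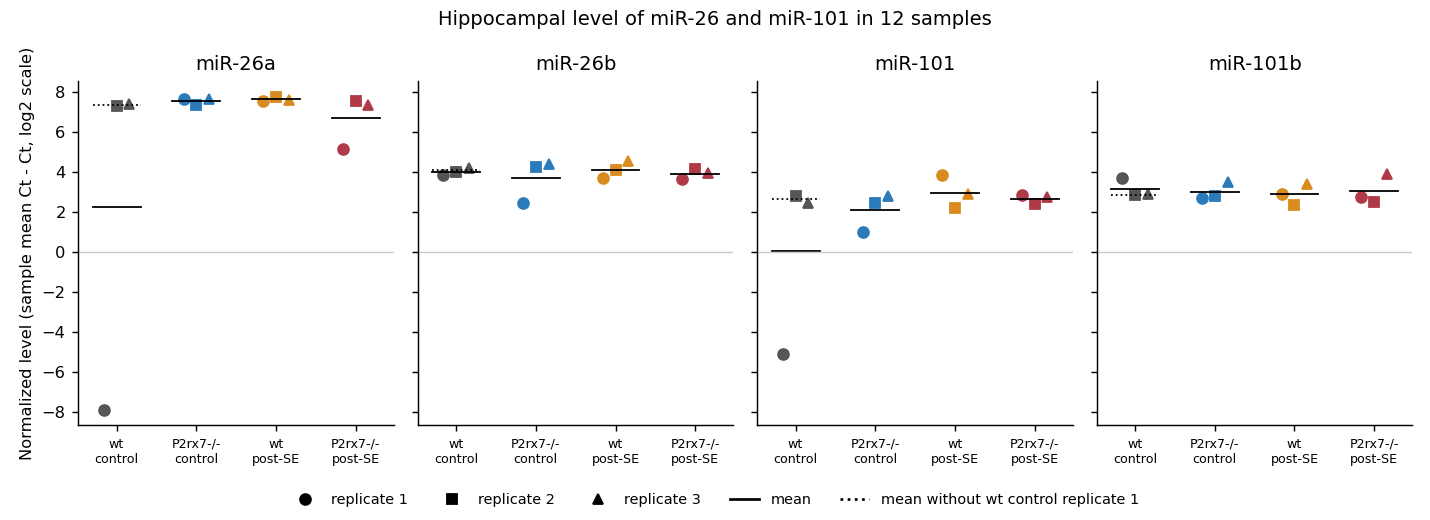
Normalized level (y axis, sample mean Ct minus Ct, log2 scale) of miR-26a, miR-26b, miR-101 and miR-101b in the 3 samples of each group; solid lines are group means and dotted lines the wt control mean without replicate 1. Replicate 1 of wt control lies at -7.86 for miR-26a and -5.10 for miR-101, at 3.84 for miR-26b and, above the other wt control samples, at 3.70 for miR-101b.

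With all 12 samples, the spread within groups (pooled SD) was 4.44 for miR-26a and 2.32 for miR-101, which exceeded that of 99.7% and 93.4% of the miRNAs analyzed. It was 0.60 for miR-26b and 0.57 for miR-101b, near the median of 0.64 over all miRNAs. Without wt control replicate 1 the pooled SD was 0.72 for miR-26a, 0.64 for miR-26b, 0.69 for miR-101 and 0.55 for miR-101b, against a median of 0.54. The group means without that sample followed the order wt post-SE (7.64 ± 0.11, SD, n = 3), P2rx7-/- control (7.55 ± 0.19, n = 3), wt control (7.33 ± 0.08, n = 2) and P2rx7-/- post-SE (6.67 ± 1.34, n = 3) for miR-26a. Of the neighbors in this order, P2rx7-/- control and wt control differed by 0.22, more than the larger SD (0.19), with 2 wt control samples left. For the other 3 miRNAs, no neighboring groups in the order differed by more than the larger of their SDs, with or without this sample.

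To obtain a value that needs no normalizer, the Ct of related assays was subtracted within each sample. The Ct of miR-26b minus that of miR-26a was -11.7, 3.29 and 3.20 cycles in wt control samples. It was 5.20, 3.06 and 3.27 cycles in P2rx7-/- control, 3.86, 3.64 and 3.08 cycles in wt post-SE and 1.499, 3.43 and 3.39 cycles in P2rx7-/- post-SE samples. The difference thus lay between 3.06 and 3.86 cycles in 9 samples and outside this range in replicate 1 of wt control, P2rx7-/- control and P2rx7-/- post-SE. Between P2rx7-/- post-SE and wt post-SE samples it differed by -0.75 cycles (two-sided exact permutation test, p = 0.4). From P2rx7-/- control to P2rx7-/- post-SE it changed by -1.07 cycles, with p = 0.6 in the same exact test. The smallest p that 3 samples against 3 allow is 0.1.

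The Ct of miR-101b minus that of miR-101 was -8.80, -0.03 and -0.45 cycles in wt control and -1.65, -0.33 and -0.72 cycles in P2rx7-/- control samples. It was 0.93, -0.16 and -0.53 cycles in wt post-SE and 0.10, -0.10 and -1.11 cycles in P2rx7-/- post-SE samples. The groups overlapped in the pair of comparisons without wt control samples, where the differences were -0.45 cycles between genotypes after status epilepticus (two-sided exact permutation test, p = 0.6) and 0.53 cycles between the P2rx7-/- groups (p = 0.4, same exact test).

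**Figure D3:**
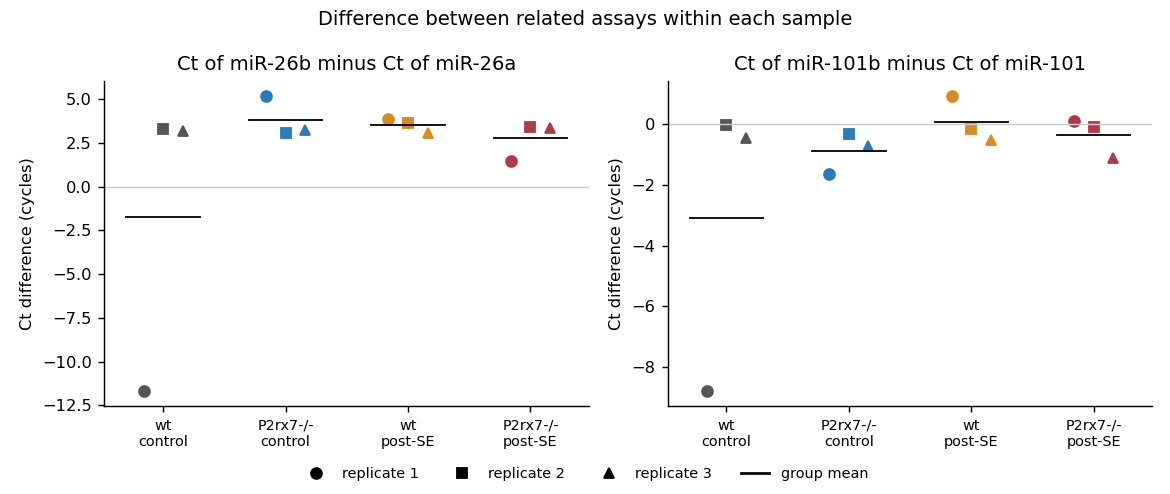
Ct of miR-26b minus Ct of miR-26a (left) and of miR-101b minus miR-101 (right) in each sample, in cycles on the y axis and by group on the x axis; lines are group means over all 3 samples. Replicate 1 of wt control lies at -11.7 and -8.80 cycles, while the other 11 samples lie between 1.499 and 5.20 cycles and between -1.65 and 0.93 cycles.

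Whether the 4 miRNAs depended on the P2X7 receptor after status epilepticus was tested by comparing P2rx7-/- post-SE with wt post-SE samples. The fold change (FC) of each sample was taken against the mean level of the group it was compared with, and a miRNA was called up-regulated with an average FC above 1.5 and down-regulated with one below 0.6. With the arithmetic mean of the FCs none of the 4 was called, where 21.5% of the 335 miRNAs were called in either direction. For miR-26a the FCs were 0.177, 0.952 and 0.801, with an average of 0.643 ± 0.411 (SD, n = 3). Without replicate 1, the lowest sample, the average was 0.874. It fell below the threshold without replicate 2 (0.496), without replicate 3 (0.567) and with the geometric mean of the FCs (0.513). The average FC was 0.873 ± 0.147 for miR-26b, 0.813 ± 0.127 for miR-101 and 1.21 ± 0.668 for miR-101b. The last of these fell to 0.829 without P2rx7-/- post-SE replicate 3, the single sample above 1 (1.97).

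With limma fitted to all 12 samples and Benjamini-Hochberg adjustment over the 335 miRNAs, the log2 differences between genotypes after status epilepticus were -0.96 ± 3.22 (SE) for miR-26a, -0.21 ± 0.49 for miR-26b, -0.31 ± 1.69 for miR-101 and 0.14 ± 0.46 for miR-101b (adjusted p = 0.999 for each). The exact permutation tests gave p = 0.2, 0.5, 0.7 and 0.8. The wide error of miR-26a and miR-101 held wt control replicate 1, although the comparison itself does not use it. Without that sample the log2 difference of miR-26a was -0.97 ± 0.57 (95% interval -2.24 to 0.31, adjusted p = 0.981, limma over 382 miRNAs), and that of miR-101 was -0.31 ± 0.53 (-1.49 to 0.86). The intervals of miR-26b (-1.35 to 0.92) and miR-101b (-0.88 to 1.16) also included 0. The median log2 difference over the 4 miRNAs was -0.26, against -0.01 over all 335. In this comparison limma called 0% of all miRNAs, while 4 had an unadjusted p below 0.05.

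The effect of status epilepticus within P2rx7-/- mice was tested against P2rx7-/- control samples. With the arithmetic mean of the FCs and global mean normalization, none of the 4 miRNAs was called, against 25.1% of all miRNAs, but miR-101 and miR-26a crossed a threshold under other settings. For miR-101 the FCs were 1.67, 1.23 and 1.59, with an average of 1.496 ± 0.234 (SD, n = 3) that stayed just under the threshold. All 3 samples lay above the mean of the P2rx7-/- control samples, but the groups overlapped, as the FCs of the control samples ran from 0.478 to 1.64. The call depended on the normalizer, since the average was 1.57 with the mean of all miRNAs detected in a sample, 1.57 with the median Ct and 1.64 with snoRNA202, all above the threshold. It also depended on single samples, with 1.03 without P2rx7-/- control replicate 1 but 1.69 and 1.93 without P2rx7-/- control replicates 2 and 3, 1.64 without P2rx7-/- post-SE replicate 2 and 1.508 without wt post-SE replicate 2, whose removal changes the miRNAs that enter the normalizer. For miR-26a the FCs were 0.188, 1.01 and 0.850 (average 0.683 ± 0.436). The average was 0.934 without P2rx7-/- post-SE replicate 1. It fell below the threshold without replicate 2 (0.523) and with the geometric mean of the FCs (0.544). The average FC was 1.15 ± 0.195 for miR-26b and 1.13 ± 0.623 for miR-101b. Without P2rx7-/- control replicate 1, the low sample named above, miR-26b averaged 0.744.

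In limma, the log2 differences between P2rx7-/- post-SE and P2rx7-/- control samples were -0.88 ± 3.22 (SE) for miR-26a, 0.19 ± 0.49 for miR-26b, 0.57 ± 1.69 for miR-101 and 0.04 ± 0.46 for miR-101b (adjusted p = 0.998 for each). The exact permutation tests gave p = 0.2, 1, 0.6 and 0.9. Without wt control replicate 1, miR-26a differed by -0.92 ± 0.57 (95% interval -2.19 to 0.35, adjusted p = 0.839) and miR-101 by 0.53 ± 0.53 (-0.65 to 1.70, adjusted p = 0.870). The median log2 difference over the 4 miRNAs was 0.12, against 0.02 over all 335, and limma called 0% of all miRNAs, with 10 at an unadjusted p below 0.05.

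**Figure D4:**
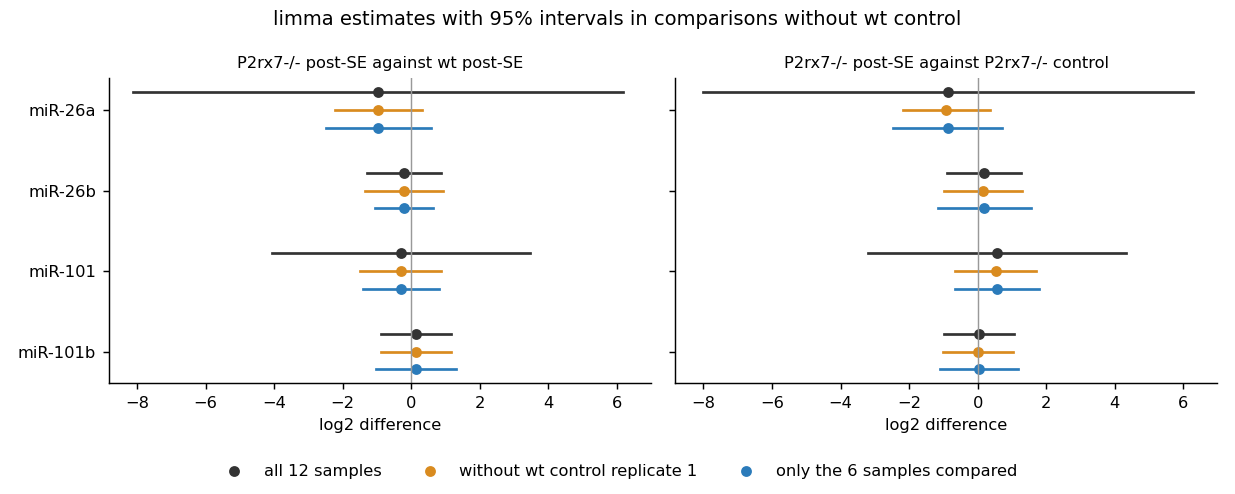
Log2 difference (x axis) with its 95% interval from limma for the 4 miRNAs between P2rx7-/- post-SE and wt post-SE samples (left) and between P2rx7-/- post-SE and P2rx7-/- control samples (right), fitted to all 12 samples, without wt control replicate 1, or to the 6 samples compared. All intervals include 0, and those of miR-26a and miR-101 are widest with all 12 samples, where the SE is 3.22 and 1.69.

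Comparisons with the wt control samples are given side by side with and without wt control replicate 1, and all 3 share these controls. In P2rx7-/- control samples, the average FC relative to all wt controls was 39.2 ± 5.01 (SD, n = 3) for miR-26a and 4.66 ± 2.45 for miR-101. Both were above 1.5 (2 of 4 miRNAs, where 21.2% of all miRNAs were above it). When wt control replicate 1 was left out, the averages were 1.18 ± 0.154 and 0.791 ± 0.418, and neither was called. The averages of miR-26b (0.952 with and 0.909 without this sample) and miR-101b (0.933 and 1.14) stayed between the thresholds.

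In wt post-SE samples the average FC relative to all wt controls was 41.5 ± 3.17 for miR-26a and 8.46 ± 4.81 for miR-101, again 2 of 4 miRNAs above 1.5 (23.3% of all miRNAs were). Leaving out wt control replicate 1 gave 1.22 ± 0.111 and 1.38 ± 0.752. For miR-26a every wt post-SE value exceeded every wt control value, both with and without this sample, with FCs of 1.11, 1.33 and 1.22 against 0.965 and 1.04 in the remaining controls. Over all miRNAs the wt post-SE samples were higher without overlap for 5.97% of 335 with all samples and for 11.5% of 382 without wt control replicate 1. The FCs of miR-101 were 2.21, 0.734 and 1.20 without wt control replicate 1. The average FC of miR-26b was 1.11 with and 1.03 without it, and that of miR-101b was 0.878 and 1.05.

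In P2rx7-/- post-SE samples the average FC relative to all wt controls was 26.6 ± 17.0 for miR-26a and 6.17 ± 0.966 for miR-101 (2 of 4 above 1.5, and 20.6% of all miRNAs). With that sample left out it was 0.789 ± 0.510 and 1.01 ± 0.155. The average of miR-26b was 0.940 with and 0.873 without this sample, and that of miR-101b was 1.01 and 1.22. None of the 4 miRNAs was called in any of these comparisons once wt control replicate 1 was left out, where the share of 382 miRNAs called was 25.9% for P2rx7-/- control samples, 22.5% for wt post-SE samples and 21.7% for P2rx7-/- post-SE samples.

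**Figure D5:**
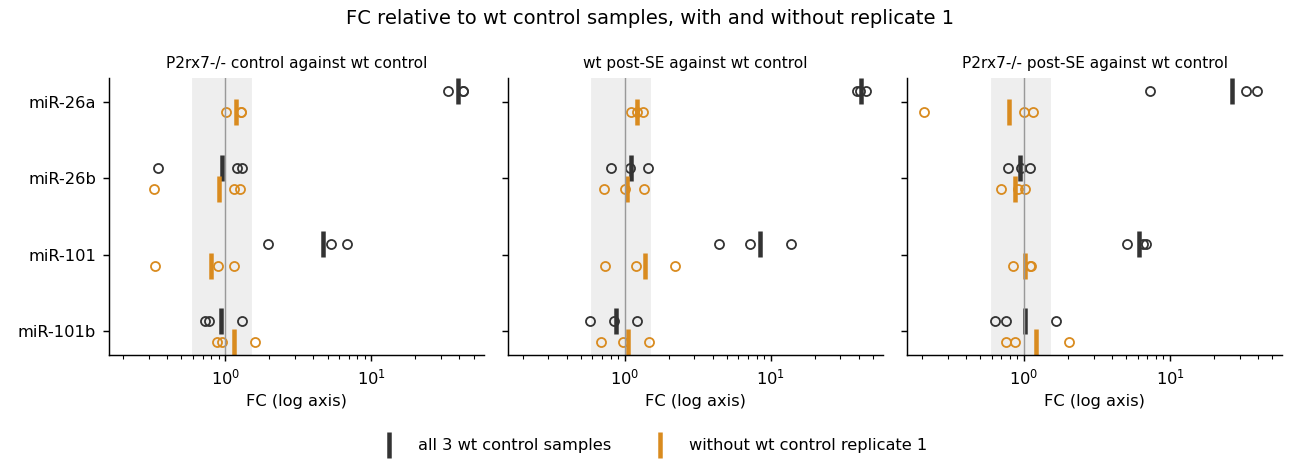
FC (x axis, log scale) relative to the wt control samples for each sample (circles) and as the average of 3 (bars), with all wt control samples or without replicate 1; the grey band marks the range between the thresholds of 0.6 and 1.5. For miR-26a the averages move from 39.2, 41.5 and 26.6 to 1.18, 1.22 and 0.789 when replicate 1 is left out.

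The passenger strands, which usually are degraded after the guide strand is loaded, were read by assays for miR-26b (hsa-miR-26b#) and miR-101a (mmu-miR-101a#). The Ct of miR-26b# ran from 21.4 to 24.8 cycles and that of miR-101a# from 18.5 to 24.5 cycles. In wt control replicate 1, miR-26b# had a Ct of 23.7, within the range of its group, and miR-101a# gave none. MiR-101a# also lacked a Ct in wt post-SE replicate 1, so it was not among the 335 miRNAs, and its lowest Ct was in wt post-SE replicate 2. Relative to P2rx7-/- control samples, the FCs of miR-26b# in P2rx7-/- post-SE samples were 1.03, 1.41 and 3.81, with an average of 2.08 ± 1.504 (SD, n = 3). For miR-101a# they were 1.07, 3.97 and 1.32, with an average of 2.12 ± 1.61. Of all miRNAs, 17.9% had an average above 1.5 in this comparison. A single sample carried each average, which was 1.22 for miR-26b# without replicate 3 and 1.19 for miR-101a# without replicate 2, both below the threshold. Relative to wt post-SE samples, the average FC was 0.998 ± 0.721 for miR-26b# and 0.413 ± 0.314 for miR-101a#, the latter against the 2 samples with a Ct. Leaving out P2rx7-/- post-SE replicate 3 gave 0.585 for miR-26b#, and leaving out replicate 1 or 2 of wt post-SE gave 0.565 or 1.63. For miR-101a#, leaving out P2rx7-/- post-SE replicate 2 gave 0.232, and leaving out replicate 3 or 2 of wt post-SE gave 0.0646 or, with the direction turned, 2.64. These values with a sample left out were chosen after seeing the data. In limma without the detection filter, the adjusted p of both strands was 0.999 between genotypes and 0.998 against P2rx7-/- control samples.

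Among 517 other guide assays, 387 matched a RefSeq entry by name, and 2 of these shared bases 2 to 7 with one of the 4 miRNAs. MiR-144, a miRNA of red blood cells that resembles miR-101, had a Ct in 8 samples and was not analyzed. The assay name of miR-144 gives no arm. MiR-582-5p, which shares these bases with the miR-101b entry, was detected in all samples with a median Ct of 21.8. Of 15 assays for other miRNAs known to target Ezh2 (let-7 members, miR-98, miR-124, miR-138, miR-214 and miR-217), 7 were analyzed. All 7 were assays of let-7 members or miR-98. No assay of miR-124, miR-138, miR-214 or miR-217 was among them, so the values below do not cover those miRNAs. Between genotypes after status epilepticus, 0 of these 7 were up-regulated and 2 down-regulated, where 21.5% of all miRNAs were called, with a median log2 difference of -0.41 against -0.01 over all miRNAs. Relative to P2rx7-/- control samples 2 were up- and 1 down-regulated, where 25.1% of all miRNAs were called, with a median of -0.06 against 0.02. None had an adjusted or unadjusted p below 0.05 in limma.

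To find the miRNAs with the most similar pattern, profiles were centered on their own mean and the mean absolute difference was taken over the 11 samples without wt control replicate 1. The miRNA closest to miR-26a was miR-671-5p (0.32 on the log2 scale, against a median of 0.60 over all miRNAs), followed by miR-152 and miR-365 (0.36 each). For miR-26b these were miR-381 (0.27), miR-194 (0.28) and miR-376c (0.30), against a median of 0.54. MiR-30a-5p was closest to miR-101 (0.23, against a median of 0.62), followed by miR-137 (0.28) and miR-1839-5p (0.36). MiR-30a-5p was also delayed in wt control replicate 1, by 8.64 cycles, and stayed closest over all 12 samples (0.25). For miR-101b the closest were miR-805 (0.16), let-7g# (0.18) and miR-16# (0.18), against a median of 0.53. The family members were not among the closest. MiR-26b ranked at position 81 of 334 in likeness to miR-26a, and miR-101b at position 49 in likeness to miR-101. Over all 12 samples, where wt control replicate 1 sets most of the profile, miR-99a and miR-150 (0.95 and 0.96) were closest to miR-26a.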

How the data were processed

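Hippocampal RNA (1 µg per sample) was reverse transcribed, pre-amplified and measured by TaqMan OpenArray. The authors deposited Ct values without normalization, 1 per assay and sample, with Ct from 10.004 to 27.9986 listed and 470 to 538 miRNA assays detected per sample. The software of the Ct calls is not given in the sources used here. The authors also deposited a ratio per assay and sample (fold change relative to wt control replicate 1), used only as an alternative. Groups and replicate numbers were read from the sample titles, and the number of unassigned columns was 0. As each assay was read once, errors rest on the variation among 3 samples per group.

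MiRNAs with a Ct below 28 in all samples were analyzed (335), with global mean normalization. FCs followed the 2-ΔΔCt method, with thresholds of 1.5 and 0.6, and limma 3.58.1 (R 4.3.3; lmFit and eBayes on the log2 scale) was fitted to all samples with 1 coefficient per group and Benjamini-Hochberg adjustment. Exact permutation tests were run with scipy 1.17.1. The code was tested on simulated data. The miRNAs, lists and tests were chosen with earlier results of these data known. Besides the 4 miRNAs, the text names their passenger strands, assays sharing bases 2 to 7, the 3 most similar profiles, other Ezh2-targeting miRNAs, tissue markers and the 5 miRNAs most delayed in wt control replicate 1. Alternatives comprised another normalizer, a stricter or no Ct filter, the geometric mean of the FCs, the deposited ratios, the samples left out or fitted, sample weights, a replicate block and the two-group test of the methods.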

Additional observations from a re-analysis of the deposited data

Results flagged for a closer look

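For miR-26a, the log2 difference between P2rx7-/- and wt was 5.29 in control samples and -0.96 after status epilepticus, which differ by -6.25. For miR-101 the corresponding values were 2.04 and -0.31, which differ by -2.35. Both were picked out because the genotype difference was not the same in control and post-SE samples, and neither change was tested. Without wt control replicate 1, the difference in control samples was 0.23 for miR-26a and -0.52 for miR-101.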

How the results depend on the processing

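In the comparisons without wt control samples, no adjusted p of the 4 miRNAs was below 0.839 in limma under any alternative, and the two-group test of the methods gave a lowest p of 0.281 (0.977 adjusted). Between genotypes after status epilepticus, the log2 difference of miR-26b was 0.029 with snoRNA135 and 0.024 with snoRNA202 as normalizer, and that of miR-101 was 0.0063 with array weights. With one sample left out at a time, the log2 differences between genotypes ran from -0.45 to 0.0015 for miR-26b, from -0.69 to 0.093 for miR-101 and from -0.28 to 0.43 for miR-101b. Against P2rx7-/- control samples they ran from -0.44 to 0.54 for miR-26b and from -0.37 to 0.32 for miR-101b. Average FCs ran from 0.626 to 1.08 for miR-101 between genotypes, and against P2rx7-/- control samples from 0.744 to 1.47 for miR-26b and from 1.03 to 1.93 for miR-101. With snoRNA135 the average FC between genotypes was 1.05 for miR-26b and 0.953 for miR-101, and with snoRNA202 it was 0.987 for miR-101. With the deposited ratios, the average FC of miR-26b against P2rx7-/- control samples was 0.943. The average FC of miR-101a# between genotypes after status epilepticus ran from 0.0646 to 2.64.

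Relative to wt control samples, the average FC with one sample left out at a time ran from 1.18 to 231.8 in P2rx7-/- control, from 1.22 to 244.9 in wt post-SE samples and from 0.789 to 157.4 in P2rx7-/- post-SE samples for miR-26a. For miR-101 it ran from 0.791 to 12.2, from 1.38 to 22.1 and from 1.01 to 16.1. Each lowest value was without wt control replicate 1. For miR-26a the average FC was 53.9 with snoRNA135 and 33.0 with snoRNA202 in P2rx7-/- control samples, and 47.98 and 32.0 in wt post-SE samples. With snoRNA135 it was 1.28 for miR-101b in P2rx7-/- control samples, and 1.30 for miR-26b and 8.31 for miR-101 in P2rx7-/- post-SE samples. With the deposited ratios, in which the values rather than the Ct are averaged, it was 1.497 for miR-26a and 1.02 for miR-101 in P2rx7-/- control samples, 1.60 and 1.76 in wt post-SE samples, and 0.986 and 1.31 in P2rx7-/- post-SE samples. In the deposited ratios a Ct of 0 was also used for empty wells. Apart from settings that only leave out a sample, the cause of the changes in average FC was not tested. MiR-26a was not analyzed with a Ct cut-off of 26, as wt control replicate 1 exceeds it.

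Replicate numbers are shared between groups. The deviations of same-numbered samples correlated at 0.081, 0.080 and 0.251 between the post-SE groups. The highest correlation with a differently numbered sample was 0.012, 0.037 and -0.095 in turn. Between the P2rx7-/- groups the values were -0.010, 0.112 and 0.271, against 0.106, 0.070 and -0.061. The same-numbered value was thus the higher one except for replicate 1 of the P2rx7-/- groups. Whether same-numbered samples share more than a number was not tested. With the replicate block, the adjusted p was 0.999 and 0.998, the log2 differences were the same as without it (-0.96 and -0.88 for miR-26a), and 0 miRNAs were called. With 3 samples per group and single readings, precision is limited.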
